A study of Mus musculus with 2 samples.

Results

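Homeodomain and regional identity transcription factors were followed through 2 RNA-seq libraries of newborn mouse midbrain. The set held 56 genes of 43346 mouse genes in the tables, chosen by name from a list of mouse symbols and matched to the deposited gene identifiers with their version removed. All 56 were found. Each gene was put in 1 group by the brain region it is best known for, although many are used in several regions: 10 midbrain, 4 isthmic, 13 diencephalic, 10 telencephalic and 19 broadly used factors.

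A homeodomain is a short DNA-binding fold of 3 helices whose last helix lies in the groove of the DNA. In the developing brain, combinations of such factors, together with paired-box, LIM, POU and zinc-finger relatives, divide the neural tube into forebrain, midbrain and hindbrain and later mark separate types of neurons. Otx2 marks forebrain and midbrain, En and Pax2, Pax5 and Pax8 mark the isthmus at the midbrain and hindbrain border, and Emx and Dlx genes mark the dorsal and ventral telencephalon.

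Both libraries belonged to 1 group, the midbrain of B6NCrl mice (a substrain of the C57BL/6N laboratory mouse) on postnatal day 0, untreated and with no engineered allele named. Replicate 1 was made from the midbrain of pup 1 and replicate 2 from that of pup 3. The mirVana kit served for extraction, RNA above the small-RNA size was kept, and 13 pg of total RNA, stated as 1 cell-equivalent, was amplified by a SMART-type protocol with added spike-in RNAs. The labels name the assay as single-cell, although the input was RNA of a whole tissue piece, give 1 donor record for both pups, and state that sex was not collected.

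With 1 group of 2 pups there was no condition to compare and no test across samples. Differences between pup 1 and pup 3 are differences between 2 libraries, and how much of them came from the amplification of 13 pg and how much from the pups cannot be told apart. Each library reports a tissue sum, in which fewer cells of a type and less RNA per cell cannot be told apart. Total expected counts were 26583225 in pup 1 and 33142647 in pup 3. The members together took 0.16% of the counts on mouse genes in pup 1 and 0.157% in pup 3.

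All 5 pan-neuronal markers examined were read in both libraries, with summed levels of 10694 TPM in pup 1 and 7405 TPM in pup 3 (TPM, a level scaled to a fixed total per library, is corrected for transcript length). Of 5 midbrain neuron markers, 4 were read in both and Sox14 only in pup 3. Among markers of neighbouring tissue, the cortical gene Neurod6 was read at 46.5 TPM in pup 1 and 28.1 TPM in pup 3, while Tbr1 and Eomes were at 0 in both. Of 4 cerebellar genes, only Zic1 was read, at 13.5 TPM in pup 1 and 22.3 TPM in pup 3, with Atoh1, Pcp2 and Gabra6 at 0. All 4 genes of meninges and vessels were read in both, with summed levels of 2833 TPM in pup 1 and 3803 TPM in pup 3. Of 5 retinal and pituitary genes only Pomc was read, at 6.28 TPM in pup 1, and the other 4 were at 0 in both.

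The homeobox stretch that most members share is shown for paralogous pairs of which 1 member was the highest of its regional group or family. The letters come from GENCODE M21 transcripts on GRCm38 (mm10), coding strand, 5′ to 3′. Each run covers 60 bases, that is 20 codons, of the last part of the homeobox, and the capitals mark the 18 bases that code for the invariant tryptophan, asparagine and arginine stretch of the recognition helix.
Otx2: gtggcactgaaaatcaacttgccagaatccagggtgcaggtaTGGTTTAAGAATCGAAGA
Otx1: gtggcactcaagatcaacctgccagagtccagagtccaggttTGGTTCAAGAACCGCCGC
Meis2: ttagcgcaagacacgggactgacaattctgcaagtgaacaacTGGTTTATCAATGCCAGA
Meis1: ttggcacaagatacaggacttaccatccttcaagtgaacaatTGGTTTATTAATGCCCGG
Irx3: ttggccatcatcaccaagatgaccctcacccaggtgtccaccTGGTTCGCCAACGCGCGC
Irx5: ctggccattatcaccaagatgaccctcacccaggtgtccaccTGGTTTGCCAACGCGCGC
Lhx9: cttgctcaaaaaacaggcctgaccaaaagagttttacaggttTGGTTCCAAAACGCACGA
Lhx2: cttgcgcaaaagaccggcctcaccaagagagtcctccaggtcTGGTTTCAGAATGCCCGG
Pou4f1: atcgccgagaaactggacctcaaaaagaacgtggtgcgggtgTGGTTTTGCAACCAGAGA
Pou4f2: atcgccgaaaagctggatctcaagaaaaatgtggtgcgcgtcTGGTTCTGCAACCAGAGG
Dlx5: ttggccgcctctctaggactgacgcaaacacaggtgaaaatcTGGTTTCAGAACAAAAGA
Dlx6: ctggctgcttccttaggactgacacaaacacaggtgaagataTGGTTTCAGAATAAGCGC
Six3: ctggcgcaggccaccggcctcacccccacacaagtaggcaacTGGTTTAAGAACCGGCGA
Six6: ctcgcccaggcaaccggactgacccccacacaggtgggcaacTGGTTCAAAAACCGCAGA
Cux1: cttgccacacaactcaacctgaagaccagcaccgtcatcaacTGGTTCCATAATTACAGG
Cux2: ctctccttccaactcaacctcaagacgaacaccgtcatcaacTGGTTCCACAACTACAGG
Pbx4: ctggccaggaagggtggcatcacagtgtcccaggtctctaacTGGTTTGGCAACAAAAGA
Pbx3: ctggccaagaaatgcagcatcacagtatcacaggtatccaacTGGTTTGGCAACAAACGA
Barhl2: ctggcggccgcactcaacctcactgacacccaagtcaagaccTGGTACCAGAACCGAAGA
Barhl1: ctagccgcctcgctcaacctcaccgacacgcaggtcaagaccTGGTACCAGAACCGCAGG

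Over these 60 bases most pairs code for the same residues with different bases. Of the 20 coded residues, 0 differed in the Otx, Meis, Irx, Lhx, Pou4f and Dlx pairs and between Six3 and Six6, 1 differed between Barhl2 and Barhl1, and 3 differed between Cux1 and Cux2 and between Pbx4 and Pbx3. The bases themselves differed at 12 of 60 positions between Otx2 and Otx1, at 14 between Lhx9 and Lhx2, and at only 3 between Irx3 and Irx5. Such a stretch was found in the coding frame of 51 of the 56 members. It was not found in Pax2, Pax5 and Pax8, which carry a shortened homeodomain, or in Tshz1 and Tshz2. The search used a fixed residue pattern, so a miss does not show that a protein lacks a homeodomain. The estimate of read sharing that came with the tables was small for whole genes: the posterior SD of the count was above 0 for 9 members and at most 9.96 counts.

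A gene was called detected at 1 TPM or more. By that rule both libraries detected 20 of the 56 members, pup 1 alone detected another 8 and pup 3 alone another 11, and 17 passed in neither. Of all 21474 protein-coding genes, 31.8% passed in both, 11% in pup 1 alone and 7.33% in pup 3 alone. Levels matter for such shares: of the 38 members with a mean between 1 and 100 TPM, 19 (50%) were detected in both, against 59% of protein-coding genes in that range. Of the 17 undetected members, 13 had 0 counts in both libraries: Dmbx1, Pou4f2, Phox2a, Pax2, Lhx5, Irx2, Emx1, Emx2, Dlx2, Dlx6, Lhx6, Isl2 and Nkx6-2. For these a count of 0 allows up to 3 counts, which stands for 0.0292 to 0.201 TPM depending on the gene and library, counting error only. At 1 cell-equivalent of RNA, a transcript absent from the tissue and one missed in amplification cannot be told apart.

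**Figure D1:**
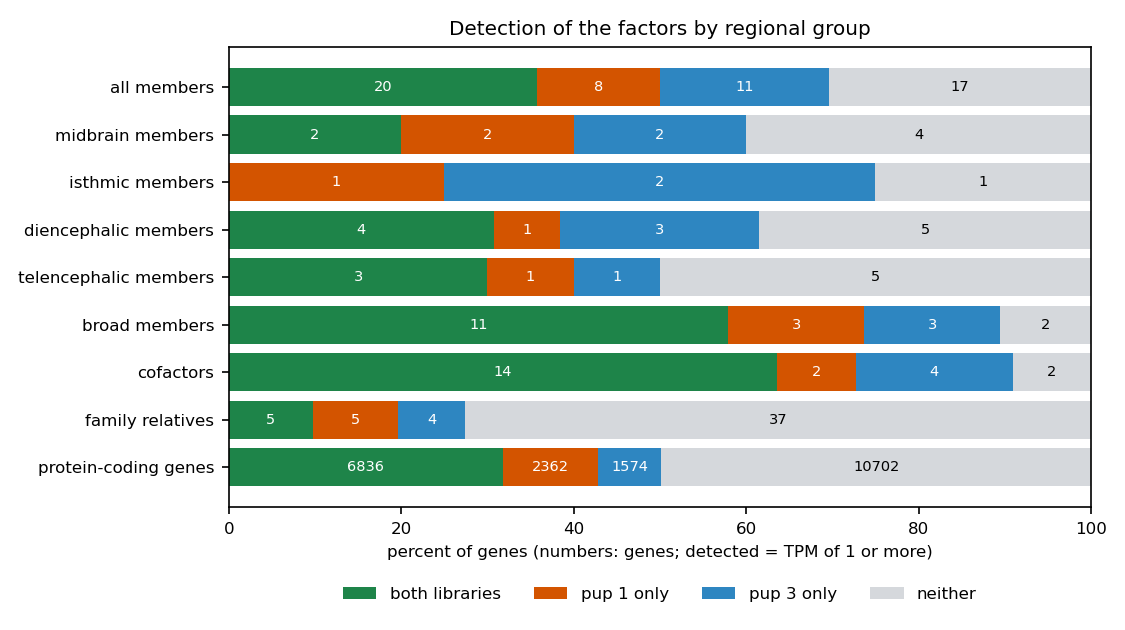
Share of genes detected at 1 TPM or more in both libraries (green), in pup 1 only (orange), in pup 3 only (blue) and in neither (grey), for all 56 members, each regional group, 2 lists of related genes and all protein-coding genes; numbers in the bars are genes. The broad group had 11 of 19 members in both libraries, the midbrain group 2 of 10 and the isthmic group 0 of 4.

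The regional groups differed in how many members both libraries shared. In both libraries there were 2 of 10 midbrain, 0 of 4 isthmic, 4 of 13 diencephalic and 3 of 10 telencephalic members, and 11 of 19 broadly used factors. As shares these were 20% of midbrain, 30.8% of diencephalic, 30% of telencephalic and 57.9% of broad members, beside 31.8% of all protein-coding genes. Some factors best known from the forebrain passed in both libraries, at shares near that of all protein-coding genes. No isthmic factor passed 1 TPM in both. Of members detected in at least 1 library, both shared 2 of 6 midbrain, 0 of 3 isthmic, 4 of 8 diencephalic, 3 of 5 telencephalic and 11 of 17 broad ones. For protein-coding genes detected in at least 1 library that share was 63.5%. The groups are small and no difference between them was tested.

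**Figure D2:**
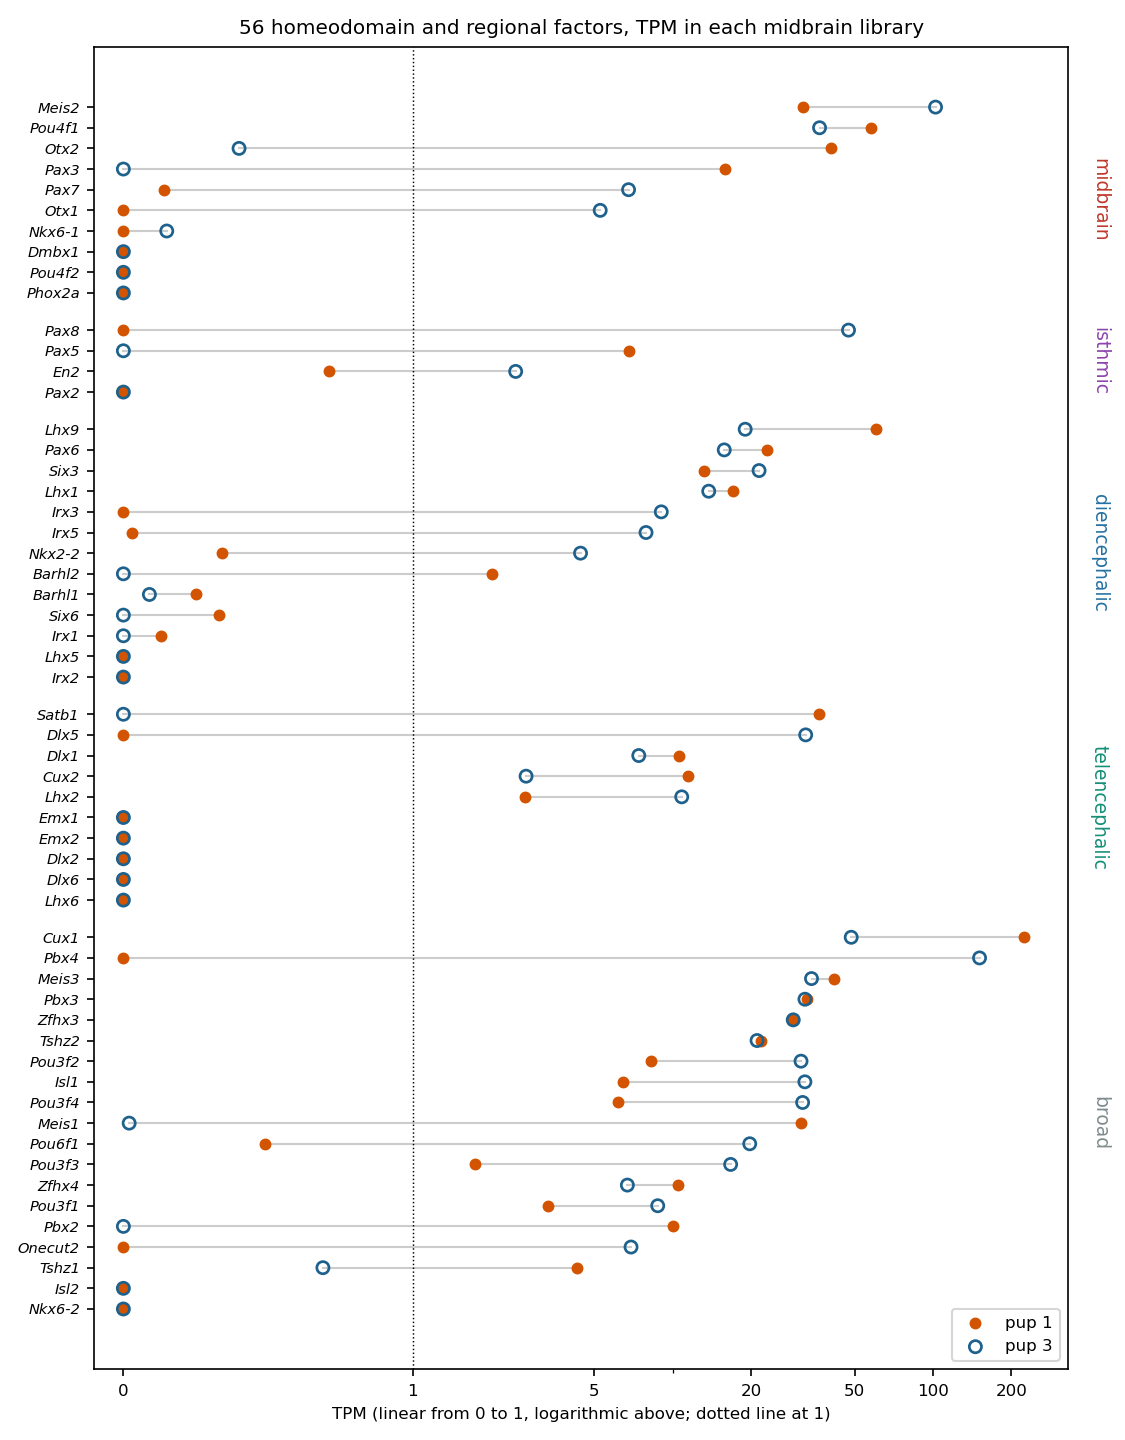
TPM of each of the 56 members in pup 1 (filled orange) and pup 3 (open blue), sorted by mean level within its regional group; the axis is linear from 0 to 1 and logarithmic above. Long grey lines that end at 0 mark members such as Pax8 and Satb1, which were read in only 1 library.

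Of the midbrain factors, Meis2 and Pou4f1 reached 1 TPM in both libraries, and Otx2, Otx1, Pax3 and Pax7 each in only 1. Meis2, a cofactor of Otx2 in the tectum (the roof of the midbrain), lies at chr2:115863064-116065839. It had 1324 counts and 31.8 TPM in pup 1, and 2595 counts and 102.2 TPM in pup 3, a mean of 67.0 ± 49.8 TPM (SD, n = 2). The count ratio of pup 1 over pup 3, scaled by the totals on mouse genes, was 0.635 with an exact 95% interval of 0.594 to 0.679, so the counts differed far less than the TPM did. The deposited effective length of Meis2 was 2559 bases in pup 1 and 1115 bases in pup 3, because the reads were put on different transcripts.

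Pou4f1, a POU factor of tectal, habenular and red nucleus neurons, had 2643 counts and 57.9 TPM in pup 1, and 1191 counts and 36.6 TPM in pup 3 (mean 47.3 ± 15.1 TPM, SD, n = 2). Its paralog Pou4f2, best known from retinal ganglion cells, was at 0 in both. Their homeobox stretches above code for the same residues but differ at 10 of 60 bases.

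Otx2, the factor that sets forebrain and midbrain against hindbrain, had 1437 counts and 40.6 TPM in pup 1, and 20 counts and 0.40 TPM in pup 3. It lies at chr14:48657677-48673819, and the count ratio was 89.4 (95% interval 57.7 to 147). Otx1, its paralog in cortex and midbrain, had 0 counts in pup 1, and 115 counts and 5.26 TPM in pup 3, at least 24.6-fold higher in pup 3. By gene level the 2 paralogs lay on opposite sides, Otx2 in pup 1 and Otx1 in pup 3. A form of 771 bases annotated as partial coding held 85.7% of the Otx1 level in pup 3, from 69 counts. The complete coding form of Otx1 had 46 counts and 0.75 TPM there, under 1 TPM.

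Pax3 and Pax7, paired-box factors of the dorsal midbrain, were split in the same manner. Of protein-coding genes detected in at least 1 library, 46.4% had an interval wholly beyond 4-fold in 1 direction or the other. Whether paralogs were split more often than other genes was not tested. Pax3 had 971 counts and 15.8 TPM in pup 1, and 0 counts in pup 3, at least 327-fold higher in pup 1. Pax7, a factor of the superior colliculus, had 13 counts and 0.14 TPM in pup 1, and 886 counts and 6.76 TPM in pup 3, a count 54.8-fold higher in pup 3 (95% interval 31.9 to 103). Of the remaining midbrain factors, Nkx6-1, which marks ventral progenitors and red nucleus neurons, had 0 counts in pup 1 and 7 counts in pup 3, and Dmbx1, Pou4f2 and Phox2a, the last a factor of the oculomotor and trochlear nuclei, were at 0 in both.

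None of the 4 isthmic factors passed 1 TPM in both libraries. Pax8 had 0 counts in pup 1, and 1643 counts and 47.3 TPM in pup 3, at least 357-fold higher in pup 3, and was the highest isthmic member. Pax5 had 159 counts and 6.8 TPM in pup 1, and 0 counts in pup 3, at least 53.0-fold higher in pup 1 by counts. The deposited posterior mean TPM of Pax5 was 10.8 in pup 1 and 1.56 in pup 3, although its count in pup 3 was 0 with a posterior SD of 0. That estimate can exceed 0 without any counts: for Irx2, at 0 counts in both, it was 0.54 TPM in pup 1 and 0.39 TPM in pup 3. The 1.56 TPM is therefore not a detection of Pax5 reads in pup 3. En2, an engrailed factor of midbrain and cerebellum, had 40 counts and 0.71 TPM in pup 1, and 195 counts and 2.49 TPM in pup 3. It was the only isthmic factor with counts in both libraries, and its count ratio of 0.255 (95% interval 0.177 to 0.360) was not wholly beyond 4-fold. Pax2 was at 0 in both.

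Of 6 genes of isthmic organizer signalling, 1 was detected in both libraries, beside 31.8% of all protein-coding genes. Spry2, an inhibitor of FGF signalling, had 20.02 TPM in pup 1 and 4.86 TPM in pup 3, and Spry1, of the same family, had 0 TPM in pup 1 and 15.6 TPM in pup 3. Wnt1, the organizer's Wnt ligand, had 0.38 TPM in pup 1 and 0 TPM in pup 3, and Fgf8, Fgf17 and Fgf18 were at 0 in both. Of the 2 signals detected in at least 1 library, 1 had a count ratio interval wholly beyond 4-fold, as had 2 of the 3 detected isthmic factors. Among protein-coding genes detected in at least 1 library that share was 46.4%, and no difference from it was tested.

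Of the 13 diencephalic factors, Lhx9, Pax6, Six3 and Lhx1 were detected in both libraries, and none of these 4 differed by more than 4-fold. Lhx9, a LIM factor of thalamus and pretectum at chr1:138825186-138848577, had 3982 counts and 60.2 TPM in pup 1, and 1750 counts and 19.0 TPM in pup 3 (mean 39.6 ± 29.2 TPM, SD, n = 2). Pax6, which marks the forebrain side of the border with the midbrain, had 23.0 TPM in pup 1 and 15.8 TPM in pup 3. Six3, a factor of the anterior forebrain and eye, had 674 counts and 13.2 TPM in pup 1, and 1254 counts and 21.5 TPM in pup 3.

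Lhx1, a LIM factor of several neuron types, was the most even of the 4, with 17.0 TPM from 1036 counts in pup 1 and 13.7 TPM from 989 counts in pup 3. The annotated Six3os1, which shares 106 exon bases with Six3 on the opposite strand, had 0.25 TPM in pup 1 and 33.0 TPM in pup 3. Whether counting used the strand is not given in the sources used here, so reads of such partners cannot be told apart with certainty.

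The Iroquois genes Irx3 and Irx5, which pattern the caudal diencephalon, sit 555.558 kb apart on chromosome 8 and both reached 1 TPM in pup 3 only. Irx3 had 0 counts in pup 1, and 514 counts and 9.03 TPM in pup 3, at least 112-fold higher in pup 3. Irx5 had 1 count in pup 1, and 414 counts and 7.89 TPM in pup 3, a fold of 333 in pup 3 over pup 1 (95% interval 59.4 to 13169). Of the pair on chromosome 13, Irx1 had 5 counts in pup 1 and 0 counts in pup 3, and Irx2 was at 0 in both.

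Nkx2-2, which marks ventral progenitors and the zona limitans, had 9 counts and 0.34 TPM in pup 1, and 189 counts and 4.42 TPM in pup 3, a count 16.9-fold higher in pup 3 (95% interval 8.70 to 37.5). Barhl2, a BarH-like factor of diencephalon and retina, had 73 counts and 2.02 TPM in pup 1, and 0 counts in pup 3, at least 24.0-fold higher in pup 1. The remaining diencephalic members were near or at 0: Barhl1 had 10 counts in pup 1 and 5 counts in pup 3, Six6 had 21 counts in pup 1 and 0 counts in pup 3, and Lhx5 was at 0 in both. Gm27199, which shares 69 exon bases with Lhx5 on the opposite strand, had 26.6 TPM in pup 1 and 0 TPM in pup 3.

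Of the 10 telencephalic factors, Dlx1, Cux2 and Lhx2 were detected in both libraries, and 5 were at 0 in both. Cux2, a cut homeobox factor of upper cortical layers, had 1245 counts and 11.5 TPM in pup 1, and 415 counts and 2.73 TPM in pup 3, with a count ratio of 3.73 (95% interval 3.34 to 4.18). Lhx2, a cortical selector gene that is also used in the thalamus, had 121 counts and 2.71 TPM in pup 1, and 435 counts and 10.8 TPM in pup 3. Of the LIM paralogs, Lhx9 was higher in pup 1 and Lhx2 higher in pup 3, with count ratios of 2.83 and 0.346. Neither was beyond 4-fold.

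Satb1, a chromatin organizer of maturing interneurons at chr17:51736187-51833290, had 1520 counts and 36.5 TPM in pup 1, and 0 counts in pup 3, at least 512-fold higher in pup 1. Dlx5, a factor of GABAergic neurons of the ventral telencephalon, had 0 counts in pup 1, and 977 counts and 32.4 TPM in pup 3, at least 212-fold higher in pup 3. Its neighbour Dlx6, 9.237 kb away on chromosome 6, was at 0 in both, as were Dlx2, 9.427 kb from Dlx1, and Emx1, Emx2 and Lhx6. The cortical markers Tbr1 and Eomes were at 0 in both libraries and Neurod6 was not, and the part of neighbouring tissue in the telencephalic reads was not tested.

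The broadly used factors had the highest share detected in both libraries, 11 of 19. Of the 17 detected in at least 1 library, 11 were in both, near the 63.5% of protein-coding genes detected in at least 1 library. Pbx3, a cofactor that binds DNA together with other homeodomain proteins, had 1352 counts and 32.8 TPM in pup 1, and 1904 counts and 32.2 TPM in pup 3. Zfhx3, a very large zinc-finger homeodomain protein, had 28.6 TPM in pup 1 and 29.0 TPM in pup 3. Meis3 had 41.6 TPM in pup 1 and 34.1 TPM in pup 3. These 3 genes were the closest to equal among the broad members by count ratio: 0.884 for Pbx3, 0.816 for Zfhx3 and 1.02 for Meis3.

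Equal TPM did not always mean equal counts. Tshz2, a teashirt zinc-finger factor, had 21.8 TPM from 461 counts in pup 1 and 21.1 TPM from 1751 counts in pup 3, with effective lengths of 1295 bases in pup 1 and 3648 bases in pup 3. Zfhx4, a relative of Zfhx3, had 10.5 TPM in pup 1 and 6.69 TPM in pup 3. Tshz1 had 4.29 TPM in pup 1 and 0.69 TPM in pup 3, with a count ratio of 5.57 (95% interval 4.28 to 7.32).

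The 4 class III POU factors, which act in neural progenitors and young neurons, were all higher in pup 3. The count of Pou3f1 was 2.96-fold higher in pup 3 (95% interval 2.53 to 3.47), with 3.32 TPM in pup 1 and 8.75 TPM in pup 3. That of Pou3f2 was 4.25-fold higher in pup 3 (3.92 to 4.60), with 8.22 TPM in pup 1 and 31.1 TPM in pup 3. That of Pou3f4, on the X chromosome, was 5.73-fold higher in pup 3 (5.06 to 6.51), with 6.18 TPM in pup 1 and 31.5 TPM in pup 3. Pou3f3 differed most of these, 10.8-fold (9.36 to 12.5), with 1.74 TPM in pup 1 and 16.7 TPM in pup 3. Sox2, a partner of these factors in neural progenitors, had 5.15 TPM in pup 1 and 23.1 TPM in pup 3. The part of radial glia in the POU difference was not tested; of the other glial markers, Fabp7 had 1385 TPM in pup 1 and 2053 TPM in pup 3, and Slc1a3 had 213 TPM in pup 1 and 101 TPM in pup 3.

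Isl1, a LIM factor of motor neurons and other neurons, had 254 counts and 6.45 TPM in pup 1, and 745 counts and 32.2 TPM in pup 3, and its paralog Isl2 was at 0 in both. Pou6f1, a POU factor of the nervous system, had 17.3 counts and 0.49 TPM in pup 1, and 1682 counts and 19.8 TPM in pup 3, a count 79.5-fold higher in pup 3 (95% interval 49.5 to 137). Onecut2, a cut-domain factor, had 0 counts in pup 1, and 2092 counts and 6.91 TPM in pup 3, at least 455-fold higher in pup 3. Nkx6-2 was at 0 in both, while Inpp5a, which shares 246 exon bases with it on the opposite strand, had 0 TPM in pup 1 and 17.97 TPM in pup 3.

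The TALE factors Meis1, Pbx2 and Pbx4 reached 1 TPM in 1 library each, unlike Meis2, Meis3 and Pbx3. Meis1 had 1120 counts and 31.1 TPM in pup 1, and 1 count in pup 3, with a ratio of 1394 (95% interval 250 to 55112). Pbx2 had 404 counts and 10.04 TPM in pup 1, and 0 counts in pup 3, at least 136-fold higher in pup 1. Pbx4 had 0 counts in pup 1, and 1830 counts and 151 TPM in pup 3, at least 398-fold higher in pup 3. It was the highest member of that library by TPM, with an effective length of 533 bases there. By counts Zfhx3 was the highest, at 10796 in pup 3. The posterior mean TPM of Pbx4 was 1.12 in pup 1 and 147.9 in pup 3. With 0 counts and a posterior SD of 0 in pup 1, the 1.12 TPM is not a detection of Pbx4 reads there.

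Across the 39 members detected in at least 1 library, the 95% interval of the count ratio lay wholly beyond 4-fold for 21, with 9 higher in pup 1 and 12 higher in pup 3. Among 10772 protein-coding genes detected in at least 1 library, 26.3% were so far higher in pup 1 and 20.2% in pup 3. Of the 21 members, 18 were detected in only 1 library, as were 3828 of the 5001 protein-coding genes beyond 4-fold. The median log2 ratio of pup 1 over pup 3, on the log2(TPM + 1) scale, was -0.02 for the 39 members and 0.08 for the protein-coding genes. The differences between the libraries thus ran in both directions for the members, as for other genes.

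**Figure D3:**
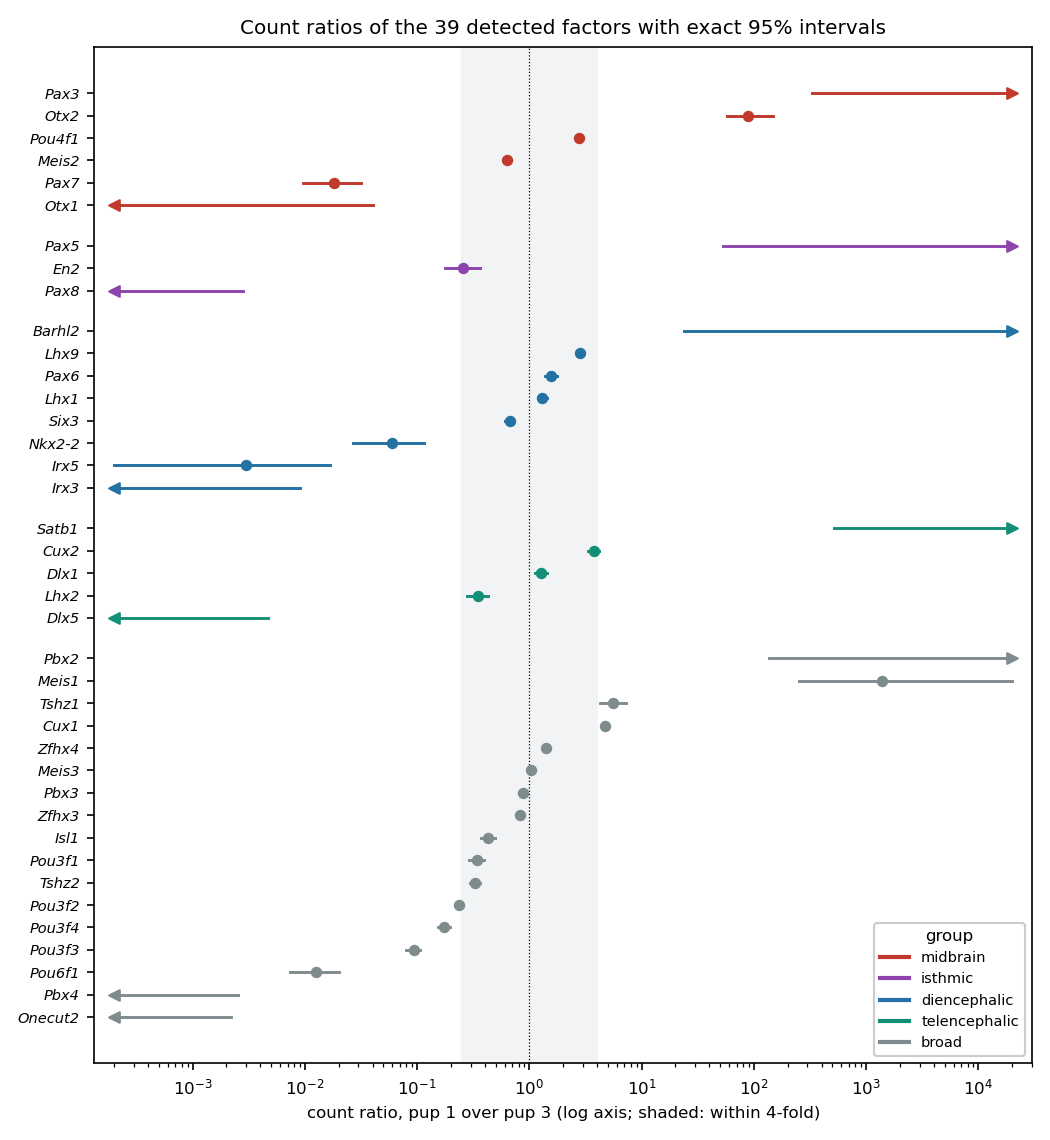
Ratio of scaled counts, pup 1 over pup 3, on a log axis for the 39 detected members by regional group, with exact 95% intervals for counting error; arrowheads mark members at 0 in 1 library, and the shaded band spans 4-fold in either direction. Intervals of 21 members lie wholly outside the band, on both sides in every group.

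**Figure D4:**
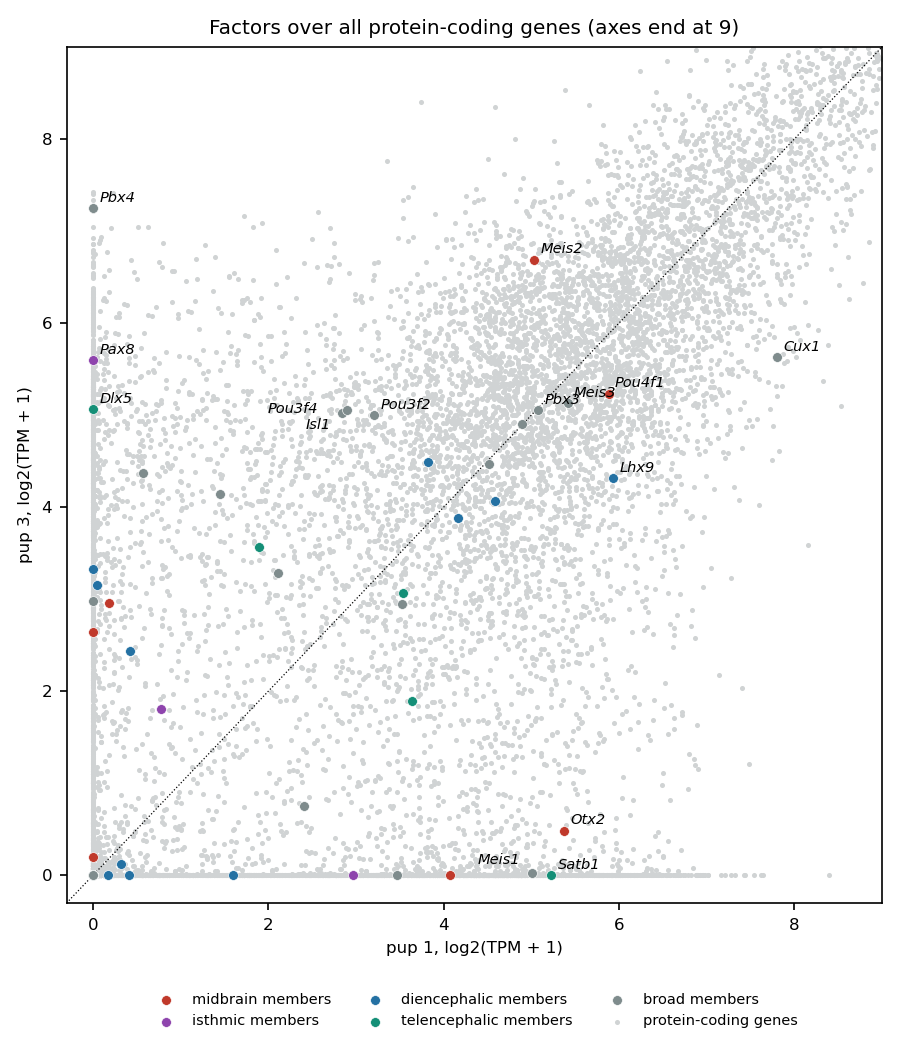
Level of each gene in pup 1 (horizontal) and pup 3 (vertical) as log2(TPM + 1), with members coloured by regional group over protein-coding genes in grey; genes above 9 on either axis are not drawn. Members such as Satb1 and Pbx4 lie along the axes among many grey genes read in only 1 library, and Pbx3 and Meis3 lie near the dotted line of equal level.

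Which annotated transcript the reads were put on changes what a level stands for, since some forms lack the homeobox or have no complete coding frame. Cux1, a cut homeobox gene that is also known to encode a Golgi membrane protein without the homeodomain, is the clearest case. It lies at chr5:136248135-136567490 and was the highest member by mean level, with 9275 counts and 223 TPM in pup 1 and 2456 counts and 48.5 TPM in pup 3. The homeobox stretch printed above occurred in transcripts that made up 1.65 TPM in pup 1 and 0.48 TPM in pup 3, which is 0.740% of the gene's level in pup 1 and 0.990% in pup 3. By counts these were 3.70% in pup 1 and 5.59% in pup 3. The leading transcript, a complete coding form of 2831 bases without the stretch, took 54.5% of the level in pup 1 and 57.6% in pup 3.

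Dlx1, a factor of GABAergic neurons, was detected in both libraries with no read on a complete coding transcript. Its 567 counts and 10.6 TPM in pup 1, and 554 counts and 7.4 TPM in pup 3, were all on a form of 3385 bases that keeps an intron of 1107 bases at chr2:71531157-71532263. That intron splits the homeobox, as the following letters of the forward strand show, with the first or last pair of intron bases in capitals. The runs cover the exon end and intron start at chr2:71531127-71531186, the intron end and exon start at chr2:71532234-71532293, and the joined exons of the spliced coding transcript.
Dlx1 intron start: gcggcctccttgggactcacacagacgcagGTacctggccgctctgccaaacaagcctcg
Dlx1 intron end: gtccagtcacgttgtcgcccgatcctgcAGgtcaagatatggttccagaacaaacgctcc
Dlx1 spliced: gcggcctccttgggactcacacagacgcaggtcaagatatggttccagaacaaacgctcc

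The spliced letters run from one exon into the next within the recognition helix, and 0 counts were put on the spliced coding transcript in either library. Dlx1as, an antisense transcript that shares 335 exon bases with the kept-intron form but 0 with the intron itself, had 3.07 TPM in pup 1 and 0 TPM in pup 3. Coverage along the intron was not analysed here, so the level of Dlx1 stands for reads put on this form, not for spliced mRNA.

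Other members were split between coding and noncoding forms. For Pou4f1, a processed transcript without the stretch took 42.4% of the level in pup 1 and 80.0% in pup 3, and its complete coding form stood at 33.4 TPM in pup 1 and 7.31 TPM in pup 3. By counts the complete coding form held 89.4% of Pou4f1 in pup 1 and 60.7% in pup 3, since a short form weighs more in TPM than in counts. For Meis2, complete coding forms summed to 25.8 TPM in pup 1 and 30.7 TPM in pup 3, closer than the gene totals, and a noncoding form of 356 bases took 0% of the level in pup 1 and 44.7% in pup 3. By counts, complete coding forms held 93.7% of Meis2 in pup 1 and 78.7% in pup 3. The noncoding share of Pax6 was 100% in pup 1 and 50.2% in pup 3, on forms that hold the homeobox stretch but no annotated complete frame.

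Lhx9, for which a form with a truncated homeodomain is known in mouse, was read on forms of both kinds. Forms with the whole stretch took 34.4% of its level in pup 1 and 47.0% in pup 3. The split among its coding forms was uncertain: 1 form without the stretch had 1402 counts in pup 1 with a posterior SD of 521 counts. Forms annotated as noncoding or decaying took 95.6% of Meis1 in pup 1, although 95.9% of its level was on forms that hold the stretch.

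The Pbx4 level of pup 3 held 0 TPM of complete coding transcripts. A partial coding form of 375 bases took 52.8% and a form annotated for nonsense-mediated decay took 45.7%. In pup 3, Pou6f1 had 84.4% of its level on a transcript with a retained intron, and Isl1 had 53.5% on a processed transcript of 588 bases. By counts, complete coding forms held 10.2% of Pou6f1 and 63.0% of Isl1 in pup 3. Each of the 4 Pou3f genes has 1 annotated transcript, a complete coding one, so no other form could take its reads.

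Among members with 50 or more counts, the leading transcript was not a complete coding one for 4 of 28 in pup 1 and 10 of 32 in pup 3. Among protein-coding genes with 50 counts these shares were 15.3% in pup 1 and 18.9% in pup 3. The leading transcript was the same in both libraries for 10 of the 17 members that had 2 or more annotated transcripts and enough counts in each (50), beside 62.6% of protein-coding genes. Counting complete coding transcripts alone at 1 TPM, a choice made after the data were seen, left 18 members detected in both libraries in place of 20, with 26 in pup 1 and 28 in pup 3.

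**Figure D5:**
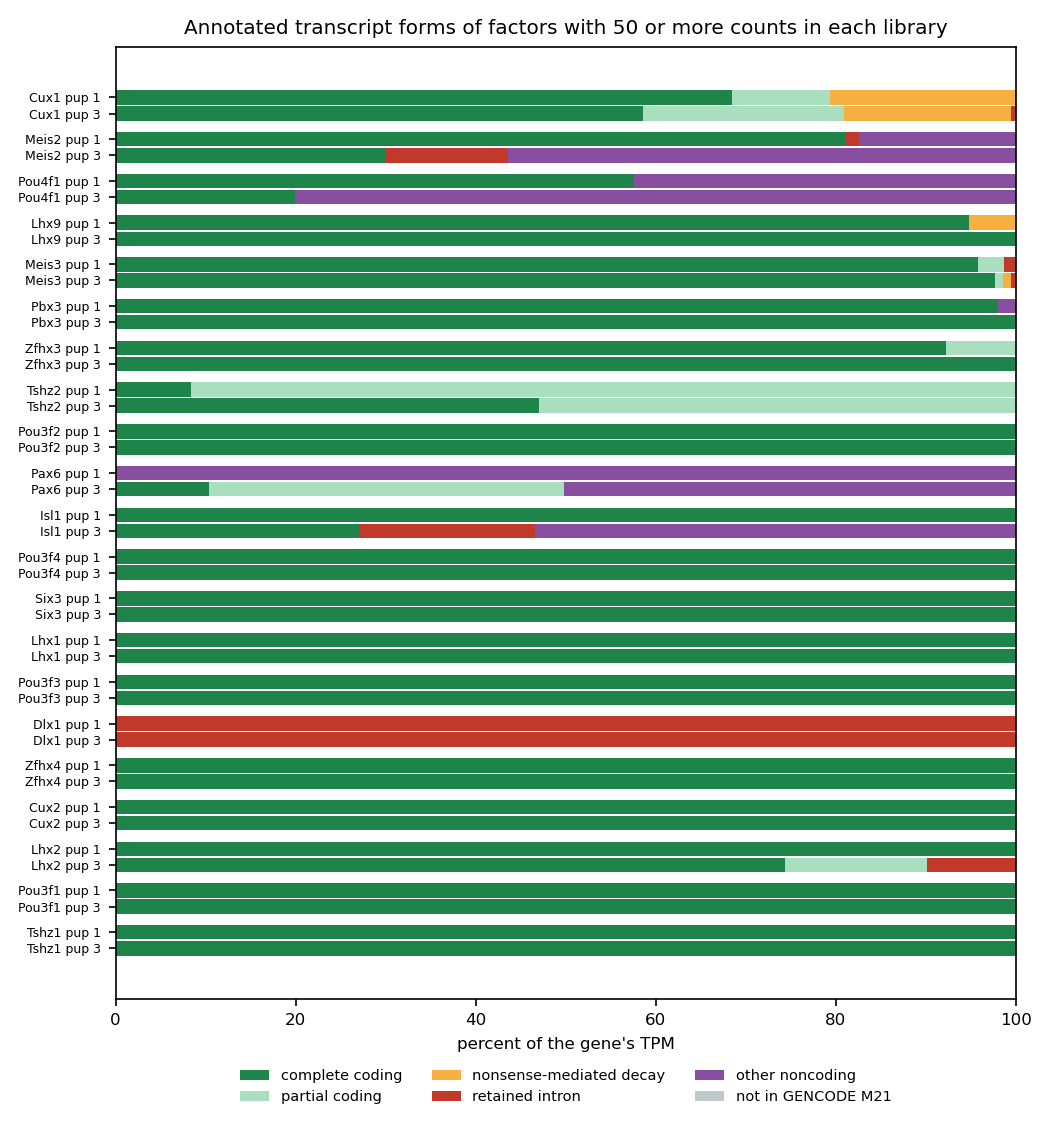
Share of each gene's TPM on annotated transcript forms, pup 1 above pup 3, for the 21 members with 50 or more counts in each library, sorted by mean level. Dlx1 is red (retained intron) in both bars, Pou3f genes are green (complete coding) because each has 1 annotated transcript, and Meis2, Pou4f1, Isl1 and Pax6 show large purple (other noncoding) parts in at least 1 library.

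Of the 56 members, 20 shared exon bases with another annotated gene, 18 of them on the opposite strand, and for 6 members such a partner reached 1 TPM in at least 1 library. Beside those named above these were Meis1, with Gm16140 at 1.69 TPM and Gm37818 at 1.28 TPM in pup 1 and both at 0 in pup 3, and Six6, with 4930447C04Rik at 0 TPM in pup 1 and 1.27 TPM in pup 3.

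Cofactors bind homeodomain, LIM or Pax proteins and carry their effect on transcription. Of 22 such genes, 14 were detected in both libraries, 2 in pup 1 alone and 4 in pup 3 alone. Both libraries thus shared 14 of the 20 cofactors detected in either, beside 63.5% of protein-coding genes detected in at least 1 library. Ssbp2, which stabilises the LIM cofactor complex, had 253 TPM in pup 1 and 126 TPM in pup 3. Lmo3, a LIM-only protein, had 208 TPM in pup 1 and 72.9 TPM in pup 3, and Lmo4 had 89.9 TPM in pup 1 and 34.5 TPM in pup 3. Ssbp3 had 91.7 TPM in pup 1 and 15.4 TPM in pup 3. The cofactors stood at a median of 28.3 TPM among the 20 detected in at least 1 library, and the 39 detected members at 15.3 TPM. Protein-coding genes detected in at least 1 library had a median of 22.6 TPM, which lies between them.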

How the data were processed

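The data were gene and transcript tables of 2 RNA-seq libraries, 1 per pup. Per the file headers, the authors used mm10 with GENCODE M4; no source used here names the aligner or quantification program, and the column headings match RSEM output. Expected counts, as deposited, are estimates that share out reads matching several transcripts; they were rounded for count ratios. The deposited TPM values, corrected for length and scaled to a fixed total over all rows, gave the levels. The deposited FPKM, posterior mean counts and posterior mean TPM served as alternatives. The leading transcript was chosen by the deposited percent of abundance per transcript. The deposited posterior SD of each count, an uncertainty score, gives the spread of the estimate. Effective length was 99 bases below transcript length.

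Members were matched by identifier through GENCODE M21 (42462 of 43346 mouse genes had a symbol). The members and gene lists were chosen with earlier results of these data known. A gene counted as detected at 1 TPM. Count ratios (pup 1 over pup 3) were scaled by the expected counts on mouse genes, 26037002 in pup 1 and 32408655 in pup 3, with exact Clopper-Pearson 95% intervals, which cover counting error only, as does the floor of 3 counts for a 0, since reads without molecular identifiers are not independent molecules. A member was listed when the interval lay wholly beyond 4-fold. The rule was tried on simulated counts that held counting error only, so that trial cannot speak to noise from amplification. For log2 ratios the pseudocount was 1 TPM. Transcript forms, exons and sequences came from GENCODE M21 on the same assembly; 2 of 127 member transcripts with counts were not in it and 9 had another length. The homeobox stretch was found in the coding frame as tryptophan or phenylalanine, phenylalanine or tyrosine, any, asparagine, any, arginine; Zfhx genes, with several stretches, were not printed. Each member detected in a library is given with its values, others by counts, and up to 4 genes of each further list by mean level; some genes of those lists are not reported here.

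Spike-in RNA took 2.05% of all counts in pup 1 and 2.21% in pup 3. Alternatives were other detection limits, scaling by edgeR 4.0.16 (TMM), DESeq2 1.42.0 size factors or spike-ins, other fold limits and pseudocounts, and each library left out. Python 3.11.15, scipy 1.17.1, pandas 2.3.3 and R 4.3.3 were used. The labels do not say that the pups were of separate litters, and the spread between them may be technical.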

Additional observations from a re-analysis of the deposited data

How the results depend on the processing

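The split of the members into detected in both, in either alone or in neither stayed within 1.5 times under limits of 0.1 and 5 TPM, 10 counts, 1 FPKM and the posterior mean TPM. Among the 36 members that overlap no other annotated gene, both libraries detected 15, pup 1 alone 3 and pup 3 alone 8, and 10 passed in neither. These counts are out of 36 and cannot be set directly beside the 20, 8, 11 and 17 of all 56 members. With 1 library left out, 28 (pup 1 alone) and 31 (pup 3 alone) members were detected, in place of 20 in both. For the regional groups those values were 4 and 4 for midbrain, 1 and 2 for isthmic, 5 and 7 for diencephalic, 4 and 4 for telencephalic and 14 and 14 for broad members. At 0.1 TPM, 4 midbrain members and 1 isthmic member were in both. By the posterior mean TPM 1 isthmic member, Pax5, was in both, although it had 0 counts in pup 3.

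The numbers beyond 4-fold, 9 higher in pup 1 and 12 higher in pup 3, came out the same with TMM, DESeq2 and spike-in scaling, with posterior mean counts and with a mean of 1 TPM or more; at 2-fold they were 12 and 18, at 8-fold 7 and 11. The median log2 ratio ran between -0.03 and 0.04 over pseudocounts, posterior means and members in both only. The leading transcript was shared by 13 of 17 members when chosen by counts. By posterior means the mean level of Pax5 was 6.17 in place of 3.4 TPM, the largest shift of the 39 detected members at 81.6%. That of Nkx2-2 was 2.8 in place of 2.38 TPM. Pax5 and Pbx4 then stood above 1 TPM in both libraries, although each had 0 counts in 1 of them. Every value rests on 13 pg of RNA per library and on 2 pups. No paired analysis was possible because both libraries belong to 1 group.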

Other observations

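Relatives of the factors that are no members were mostly unread: of 51, both libraries detected 5, pup 1 alone another 5 and pup 3 alone another 4, and 37 passed in neither, 32 of these at 0 in both. For comparison, 6836 of 21474 protein-coding genes passed in both and 10702 in neither. Pou2f1, a widely expressed POU factor, had 23.8 TPM in pup 1 and 78.6 TPM in pup 3. Gbx2, which opposes Otx2 at the isthmus and marks the thalamus, had 31.6 TPM in pup 1 and 37.0 TPM in pup 3, an even level beside the uneven one of Otx2. Pou2f2 had 21.1 TPM in pup 1 and 5.27 TPM in pup 3. All 15 Hox genes examined, which mark hindbrain and spinal cord, were at 0 in both libraries.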
